A study of Mus musculus with 22 samples.

Results

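The miRNAs of the miR-17/92 cluster were followed through mammary glands of female mice fed flaxseed or its components. Members were chosen by name: the probes for mmu-miR-19a, mmu-miR-19b, mmu-miR-20a+mmu-miR-20b and mmu-miR-92a (the prefix for mouse is left out below), and any probe naming miR-17 or miR-18a. This gave 6 of the 599 endogenous probes of the panel, the added ones being miR-18a and miR-106a+miR-17, and the rule itself uses no measured value, although it was set with earlier results of these data known. All 6 passed the filter on low counts, which 254 of the 599 probes passed.

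Total RNA of the 4th left gland was counted on a NanoString nCounter mouse panel, on which every miRNA is ligated to a tag and counted through a fluorescent barcode without amplification. The mice were female C57BL/6, aged 4 to 5 weeks when the diets began, and 6 were randomized to each diet for 3 weeks. The groups were the basal AIN-93G diet (5 lanes analysed), 10% flaxseed (6 lanes), 3.67% flaxseed oil (5 lanes) and 0.15% SDG, secoisolariciresinol diglucoside, the main lignan of flaxseed (6 lanes). Each lane held the RNA of 1 mouse, and basal 5 and oil 5, left out by the authors because too small a share of their probes exceeded background, did not enter.

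The miR-17/92 cluster is a run of hairpins cut from a shared primary transcript that Myc and E2F factors switch on, and its members are best known for promoting proliferation and survival and for their part in B lymphocyte development. miR-17 and miR-20a repress cell cycle inhibitors such as Cdkn1a, and miR-92a represses the integrin Itga5. In human breast cancer cells miR-18a represses the estrogen receptor. A paralogous cluster on the X chromosome holds miR-106a, miR-18b, miR-20b and further copies of miR-19b and miR-92a, and another, in an intron of the replication gene Mcm7, holds miR-106b, miR-93 and miR-25.

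The mature sequences show which miRNAs a probe could and could not tell apart. They are from RefSeq (GRCm38.p6), 5′ to 3′, with the seed, bases 2 to 8, in capitals. All 10 entries for the members were matched, and they give 8 distinct mature sequences. The panel names no arm, so the arm that the older name denotes was taken.
miR-17-5p (chr14:115043684-115043706, plus strand): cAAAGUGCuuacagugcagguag
miR-106a-5p (chrX:52742541-52742563, minus strand): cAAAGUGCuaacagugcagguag
miR-20a-5p (chr14:115044183-115044205, plus strand): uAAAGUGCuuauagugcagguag
miR-20b-5p (chrX:52742159-52742181, minus strand): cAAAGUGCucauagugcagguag
miR-18a-5p (chr14:115043867-115043889, plus strand): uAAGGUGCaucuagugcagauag
miR-19a-3p (chr14:115044048-115044070, plus strand): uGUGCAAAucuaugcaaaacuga
miR-19b-3p (chr14:115044358-115044380, plus strand): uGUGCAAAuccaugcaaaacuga
miR-92a-3p (chr14:115044476-115044496, plus strand): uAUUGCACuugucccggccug
The 8 sequences carry 4 seeds. miR-17, miR-106a, miR-20a and miR-20b share 1 seed, miR-19a and miR-19b another, and miR-18a and miR-92a have 1 each.

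Counted from the 5′ end, miR-106a differs from miR-17 by the single substitution U10A, and a single probe counts both. miR-20b differs from miR-20a by U1C and U10C, and these are also counted together. miR-19a and miR-19b have separate probes although they differ only by U11C, in 1 of 23 bases, and how far each probe also takes up the other miRNA was not tested. Mature miR-19b comes with the same sequence from chr14 and from chrX:52741991-52742013 on the minus strand. The same holds for miR-92a (chrX:52741854-52741874), whose 80-base hairpin on chromosome 14 and 91-base hairpin on the X chromosome differ outside the mature sequence, given here in capitals.
Mir92-1 (chr14:115044427-115044506, plus strand): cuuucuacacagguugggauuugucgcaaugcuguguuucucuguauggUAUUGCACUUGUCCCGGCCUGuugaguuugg
Mir92-2 (chrX:52741838-52741928, minus strand): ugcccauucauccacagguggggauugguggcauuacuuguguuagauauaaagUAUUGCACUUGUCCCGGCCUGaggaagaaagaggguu
Of the 6 probes, miR-18a and miR-19a alone name miRNAs with a hairpin on chromosome 14 and none on the X chromosome among these clusters. Levels of the other 4 probes cannot be divided between the loci.

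The chromosome 14 cluster spans 836 bases (chr14:115043671-115044506) with 6 hairpins, and the X chromosome cluster 875 bases (chrX:52741693-52742567) with 6. RefSeq places the long noncoding gene Mir17hg at chr14:115044390-115046728. That model holds 1 of the 6 hairpins, Mir92-1, whole and overlaps Mir19b-1. The Mcm7 cluster spans 498 bases on chromosome 5, with all 3 hairpins inside the gene.

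**Figure D1:**
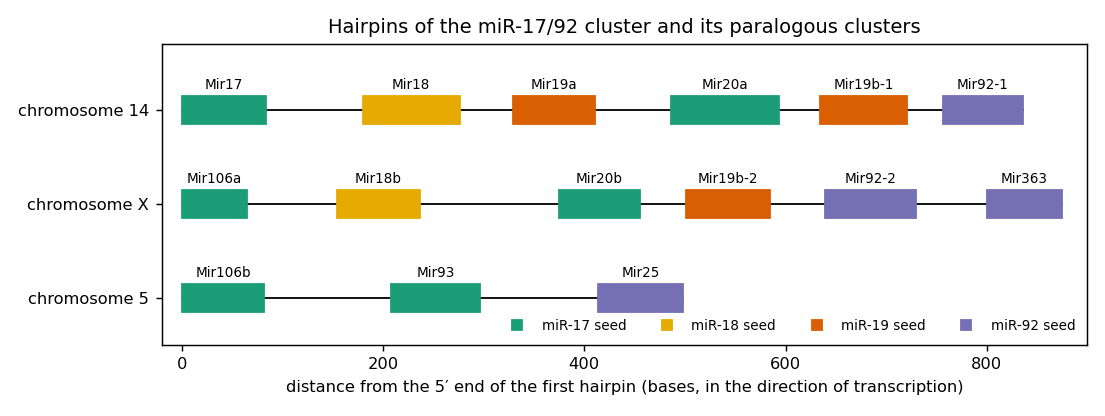
Hairpins of the cluster on chromosome 14 and of its paralogous clusters on chromosomes X and 5, drawn to scale from RefSeq positions; the horizontal axis is the distance in bases from the start of the first hairpin and colours mark the seed. The clusters on chromosomes 14 and X both open with a miR-17 and a miR-18 seed and both end on a miR-92 seed, and Mir19a has no counterpart on the X chromosome.

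Lanes held 260551 to 762146 endogenous counts, and 29.0% to 47.9% of the 599 probes lay above the lane's background, taken as the mean plus 2 SD of 8 negative controls (17.5 to 66.8 counts). In 3 lanes, basal 1, flaxseed 3 and SDG 5, the transfer RNA fragment counted as miR-720 took 47.4% to 65.4% of the counts, against 2.37% to 8.61% in the other 19. Of 6 luminal epithelial markers 5 were above background in every lane, miR-375 being the exception, as were both endothelial markers. Summed levels of 5 striated muscle markers spread from 403.4 to 190021 CPM (counts relative to the scaled total of the lane). They lay at 403.4 to 4048 in oil and 496.1 to 62683 in SDG lanes, against 471.4 to 190021 in basal and 6476 to 58883 in flaxseed lanes. Their medians were 605.0 in oil, 779.8 in SDG, 8423 in basal and 14438 in flaxseed lanes, lowest where the cluster probes were highest. Their part in the results was not tested. Of the 8 lymphocyte and myeloid markers all were above background in all lanes, with summed levels given beside the results they moved with. Summed levels of the luminal epithelial markers had medians of 11881 CPM in oil, 9452 in SDG, 7997 in basal and 7401 in flaxseed lanes, an order like that of the cluster probes. Their ranges overlapped, at 5910 to 17976 in oil and 3896 to 14369 in basal lanes, and their part in the results was not tested.

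In all 6 probes the mean level was highest in oil lanes and second highest in SDG lanes, with basal and flaxseed lanes below. 0 of the 6 passed an adjusted p of 0.05 in edgeR's quasi-likelihood test in any of the 6 comparisons of diets, and neither did any of the 254 probes (0% called in each comparison). The probes fell into 2 kinds by strength: miR-106a+miR-17, miR-20a+miR-20b, miR-19a and miR-19b were above background in 22 of 22 lanes, miR-18a in 12 and miR-92a in 11. Because each probe captures its miRNA with its own efficiency, no level is set against that of another probe. Levels are log2 CPM throughout, on libraries scaled by the trimmed mean of M values (TMM) and with 1 count added, given as means ± SD over lanes, and differences between diets are log2 fold changes ± SE.

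Among the probes with the miR-17 seed, miR-106a+miR-17 had a mean of 11.09 ± 0.41 log2 CPM in the basal lanes (SD, n = 5) and of 11.07 ± 0.47 in the flaxseed lanes (n = 6), with 11.60 ± 0.26 under oil (n = 5) and 11.39 ± 0.24 under SDG (n = 6). The 5 basal lanes read 10.41, 11.13, 11.46, 11.08 and 11.37, and the 5 oil lanes 11.59, 11.50, 11.90, 11.77 and 11.22. The flaxseed lanes ran from 10.25 over a median of 11.12 to 11.73, and the SDG lanes from 11.04 over 11.39 to 11.67. The lowest values were in basal 1 and flaxseed 3, both led by miR-720, and 4 of 5 oil lanes lay above every basal lane, so that the groups overlapped in oil 6 alone.

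miR-20a+miR-20b, of the same seed, had means of 11.90 ± 0.58 in basal and 12.26 ± 0.34 in flaxseed lanes, with 12.41 ± 0.29 under oil and 12.37 ± 0.41 under SDG. Its basal lanes read 10.94, 11.91, 12.38, 11.92 and 12.33, and its oil lanes 12.45, 12.13, 12.68, 12.70 and 12.10. Flaxseed lanes ran from 12.002 over a median of 12.08 to 12.74, and SDG lanes from 11.88 over 12.29 to 12.84. Here flaxseed 3 was high, at 12.66, where the same lane was lowest of all 22 for miR-106a+miR-17. All pairs of diets overlapped.

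miR-18a, whose seed differs from that of miR-20a by A4G, was near background. Its counts were 16 to 92 in basal and 14 to 84 in flaxseed lanes, with 47 to 94 under oil and 25 to 65 under SDG. It exceeded background in 2 of 5 basal, 2 of 6 flaxseed, 5 of 5 oil and 3 of 6 SDG lanes. Its levels of 6.56 ± 0.30, 6.50 ± 0.33, 6.88 ± 0.18 and 6.74 ± 0.39 log2 CPM in those diets overlapped throughout, and for lanes below background they are upper limits on the signal.

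miR-19a, which carries the other shared seed, had means of 10.998 ± 0.79 in basal and 11.26 ± 0.25 in flaxseed lanes, with 11.81 ± 0.40 under oil and 11.48 ± 0.50 under SDG. The basal lanes read 9.63, 11.17, 11.47, 11.16 and 11.57, and the oil lanes 11.78, 11.58, 12.24, 12.14 and 11.28. Flaxseed lanes ran from 11.03 over a median of 11.18 to 11.75, and SDG lanes from 10.96 over 11.32 to 12.13. Oil 1, 3 and 4 and SDG 1 and 2 were the 5 highest lanes, with flaxseed 5, at 11.75, next to them, while 4 of 5 oil lanes lay above every basal lane.

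miR-19b followed the same lanes, with means of 10.47 ± 0.64 in basal and 10.43 ± 0.54 in flaxseed lanes, 11.24 ± 0.30 under oil and 10.94 ± 0.38 under SDG. Its basal lanes read 9.36, 10.61, 10.81, 10.61 and 10.97, and its oil lanes 11.24, 11.11, 11.58, 11.47 and 10.82. Flaxseed lanes ran from 9.45 over a median of 10.52 to 11.09, and SDG lanes from 10.44 over 10.96 to 11.42. Basal 1 and flaxseed 3 were the lowest of the 22 lanes, and the 5 highest lanes were again oil 1, 3 and 4 and SDG 1 and 2.

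miR-92a had the widest spread, with counts of 16, 37, 18, 45 and 57 in the basal lanes and 158, 54, 262, 215 and 31 in the oil lanes. Flaxseed lanes held 12 to 50 counts with a median of 30.5, and SDG lanes 20 to 83 with a median of 39. miR-92a exceeded background in 2 of 5 basal, 1 of 6 flaxseed, 4 of 5 oil and 4 of 6 SDG lanes. Here too the threshold of the lane entered: flaxseed 5, with 50 counts, was not above its 57.9, while SDG 5, with 20, was above its 17.8. The means were 6.27 ± 0.48 log2 CPM in basal and 5.96 ± 0.36 in flaxseed lanes, with 7.46 ± 1.24 under oil and 6.79 ± 0.87 under SDG. The widest gap between neighbouring lanes, of 0.94, set oil 1, 3 and 4 and SDG 1 and 2, at 7.70 to 8.63, apart from the other 17 lanes, at 5.35 to 6.77. In 11 of these 17 lanes miR-92a was not above background. Oil 2 and oil 6, at 6.07 and 6.16, lay within the range of the basal lanes, so that 3 of 5 oil lanes, not all, were high.

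**Figure D2:**
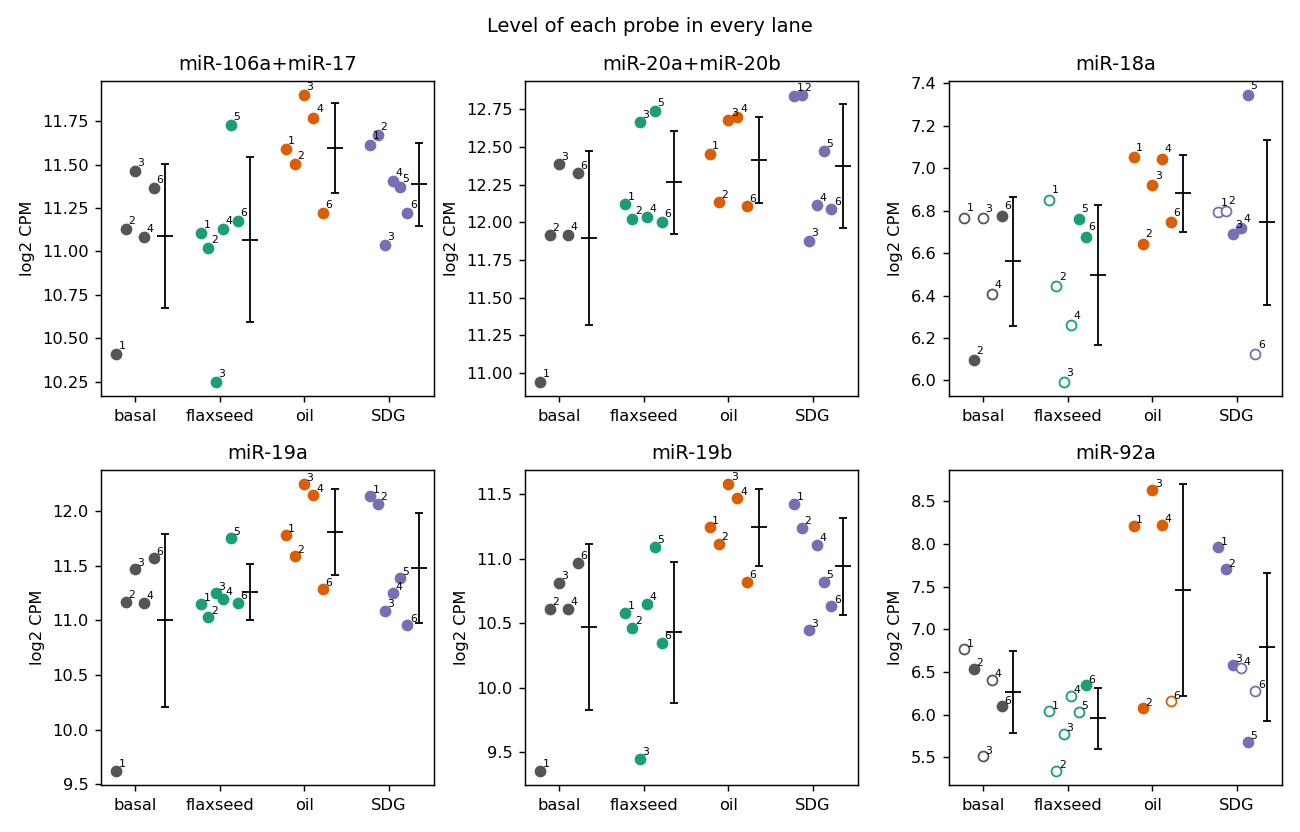
Level of each of the 6 probes (log2 CPM, vertical axis) in every lane by diet, with numbers giving the replicate, open symbols the lanes not above background and bars the mean ± SD. Oil lanes have the highest mean in all 6 panels, and in the miR-92a panel oil 1, 3 and 4 and SDG 1 and 2 stand at 7.70 to 8.63 above the other 17 lanes.

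The comparison of oil with basal lanes addresses the oil fraction of the seed. All 6 probes had a log2 fold change above 0, against 47.6% of the 254 tested, with a median of 0.59 (range 0.31 to 1.54) where all probes had a median of -0.03. The 6 were counted in the same lanes, and the 4 above background in all lanes varied together (Pearson r of 0.63 to 0.97). A shared direction, here and in the comparisons below, is therefore not 6 separate results. miR-92a showed the widest difference, 1.54 ± 0.48 (95% interval 0.56 to 2.53, edgeR adjusted p = 0.194, unadjusted p = 0.00381). As 3 of 5 basal lanes were not above background, its size is uncertain: it was 2.51 with the negative control mean subtracted (edgeR adjusted p = 0.332) and 2.24 on the deposited log2 table. miR-92a was the probe with the fifth smallest p, and 3 of 5 oil lanes lay above every basal lane. The pair with the miR-19 seed followed, miR-19a at 0.71 ± 0.31 (edgeR adjusted p = 0.282) and miR-19b at 0.70 ± 0.29 (edgeR adjusted p = 0.257). Those with the miR-17 seed came to 0.48 ± 0.24 for miR-106a+miR-17 (edgeR adjusted p = 0.31) and 0.46 ± 0.27 for miR-20a+miR-20b (edgeR adjusted p = 0.435), and miR-18a to 0.31 ± 0.22 (edgeR adjusted p = 0.544).

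At an unadjusted p under 0.05, 3 of the 6 (miR-19a, miR-19b and miR-92a) were higher in oil, against 5.91% of all tested probes higher and 10.2% lower. Basal 1 bore on the miR-19 values: without it miR-19a came to 0.52 (unadjusted p = 0.0663) and miR-19b to 0.53 (unadjusted p = 0.0599), and the unadjusted p also exceeded 0.05 for miR-19a without oil 3 or oil 4 and for miR-19b without oil 4. DESeq2 called miR-92a in this comparison (1.57, adjusted p = 0.024), together with 5 other probes. The edgeR adjusted p of miR-92a ran from 0.105 to 0.536 when each of the 10 lanes was left out in turn.

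SDG against basal asks about the lignan, and it shares the 5 basal lanes with the comparison of oil with basal. Again all 6 log2 fold changes were above 0, against 49.2% of all probes, with a median of 0.42 (all probes -0.01) and a range of 0.21 to 0.72. miR-92a came to 0.72 ± 0.46 (95% interval -0.24 to 1.68; 1.40 with the negative control mean subtracted), miR-20a+miR-20b to 0.44 ± 0.26, miR-19a to 0.42 ± 0.29 and miR-19b to 0.41 ± 0.28. miR-106a+miR-17, at 0.27 ± 0.23, and miR-18a, at 0.21 ± 0.22, were nearest 0. The edgeR adjusted p values lay between 0.839 and 0.921 and 0 of the 6 had an unadjusted p under 0.05 (2.36% of all probes higher, 2.76% lower). When lanes were scaled by the positive controls, 5 of the 6 fell below 0, with miR-92a at 0.21, and the median of all 254 probes moved to -0.50 while that of the 6 stood at -0.31.

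Whole flaxseed against basal showed no common direction. Of the 6 probes 2 lay above 0, miR-20a+miR-20b (0.32 ± 0.26, 95% interval -0.21 to 0.85) and miR-19a (0.14 ± 0.29, -0.47 to 0.75), against 55.1% of all probes. miR-92a came to -0.31 ± 0.46 (-1.27 to 0.66; -0.82 with the negative control mean subtracted), miR-19b to -0.06 ± 0.28 (-0.63 to 0.51), miR-18a to -0.04 ± 0.22 (-0.49 to 0.40) and miR-106a+miR-17 to 0.00 ± 0.23 (-0.47 to 0.47), with 0 of the 6 at an unadjusted p under 0.05 (5.91% higher, 2.76% lower). On counts without background subtraction these intervals reach 1.27 in size for miR-92a and 0.85 for the others. Of the 5 basal and 6 flaxseed lanes, miR-92a was not above background in 3 and 5, and miR-18a in 3 and 4. For miR-92a and miR-18a the intervals therefore do not bound the size of a change.

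Flaxseed against oil sets the whole seed beside its oil, and here the 6 probes stood lower in flaxseed, 0 of 6 above 0 against 57.1% of all probes, with a median of -0.53 (all probes 0.08). miR-92a had the smallest p of all 254 probes, at -1.85 ± 0.45 (95% interval -2.79 to -0.91, unadjusted p = 0.000482, edgeR adjusted p = 0.064). 4 of 6 flaxseed lanes lay below every oil lane, and 5 of 6 flaxseed lanes were not above background, so the size of the difference is uncertain. With the negative control mean subtracted it was -3.33 (edgeR adjusted p = 0.105).

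The miR-19b difference was -0.76 ± 0.28 (edgeR adjusted p = 0.107), that of miR-19a -0.57 ± 0.29 (edgeR adjusted p = 0.232) and that of miR-106a+miR-17 -0.49 ± 0.23 (edgeR adjusted p = 0.192). miR-18a came to -0.36 ± 0.21 and miR-20a+miR-20b to -0.14 ± 0.25. At an unadjusted p under 0.05, 3 of the 6 (miR-19b, miR-92a and miR-106a+miR-17) were lower in flaxseed, against 8.66% of all probes lower and 15.0% higher. When each of the 11 lanes was left out in turn, the unadjusted p stayed under 0.05 in 11 of 11 fits for miR-19b and miR-92a and in 2 of 11 for miR-106a+miR-17. For miR-19a, miR-19b and miR-106a+miR-17 alike, 5 of 6 flaxseed lanes lay below every oil lane, flaxseed 5 being the lane that overlapped.

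The call for miR-92a between flaxseed and oil turned on the setting. Its adjusted p passed 0.05 in DESeq2 (-1.91, adjusted p = 0.00207), where 30 of 254 probes did. In edgeR it passed with positive control scaling (-2.15, 0.0245) and with the filter raised to 11 lanes (-1.90, 0.0485), where 5 of 254 and 6 of 220 probes did. It also passed without the 3 lanes led by miR-720 (-1.85, 0.0303) and with scaling from all 599 probes (-2.07, 0.035), where 31 of 242 and 7 of 254 did. Leaving out flaxseed 6 (0.0332), oil 2 (0.0256), oil 6 (0.0258) or basal 1 also took it below 0.05 in edgeR. Without oil 3 the adjusted p was 0.21. The comparisons of oil with basal and of flaxseed with oil share the 5 oil lanes.

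Between flaxseed and SDG the 6 also lay below 0 (53.9% of all probes above 0), with a median of -0.27 (all probes 0.03). miR-92a was at -1.03 ± 0.44 (95% interval -1.93 to -0.12, edgeR adjusted p = 0.806), the 1 member with an unadjusted p under 0.05 (1.18% of all probes lower, 3.94% higher), and this p exceeded 0.05 without flaxseed 2, SDG 1 or SDG 2. The difference was -2.21 with the negative control mean subtracted and -0.48 with positive control scaling. Between oil and SDG 6 of 6 lay above 0 (51.2% of all probes), with a median of 0.25, from 0.02 ± 0.25 for miR-20a+miR-20b to 0.82 ± 0.44 for miR-92a (95% interval -0.09 to 1.73), and 0 of the 6 had an unadjusted p under 0.05 (1.97% higher, 5.51% lower). With positive control scaling miR-92a was called between oil and SDG (1.67, edgeR adjusted p = 0.0382), as 1 of 17 probes called among 254. That scaling moved the median of all probes to 0.79 in this comparison. In the test for any diet, 2 of the 6, miR-19b and miR-92a, had an unadjusted p under 0.05 (14.2% of all probes). Their edgeR adjusted p values were 0.297 and 0.213.

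**Figure D3:**
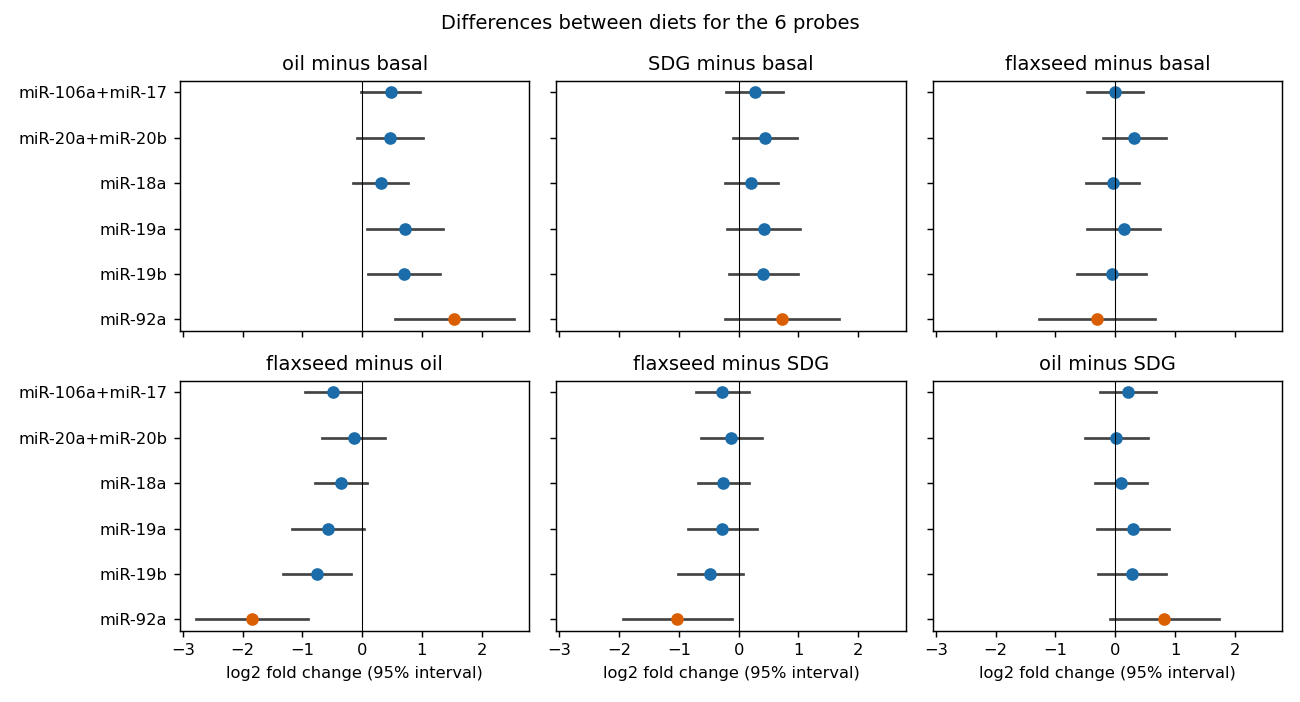
Log2 fold changes (horizontal axis, points) with 95% intervals (lines) of the 6 probes in the 6 comparisons of diets, miR-92a in orange. The intervals of miR-19a, miR-19b and miR-92a lie above 0 for oil minus basal, and those of miR-19b, miR-92a and miR-106a+miR-17 below 0 for flaxseed minus oil; 0 of the 6 passed adjustment over 254 probes.

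The 5 lanes in which miR-92a was high were the 5 highest for miR-150 and miR-142-3p, which are 2 of the 8 lymphocyte and myeloid markers. miR-150, abundant in mature lymphocytes, had 8951, 2188, 21966, 21947 and 1151 counts in the 5 oil lanes and 638 to 2090 in the basal lanes. Flaxseed lanes held 1103 to 2128 counts, and among SDG lanes SDG 1 held 7029 and SDG 2 held 15832 against 884 to 1556 in the other 4. The 5 highest lanes for miR-150, and also for miR-142-3p of blood cells, were oil 1, 3 and 4 and SDG 1 and 2, and they were the same 5 for miR-92a, miR-19a and miR-19b. miR-20a+miR-20b and miR-106a+miR-17 shared 4 of these 5 lanes and miR-18a 3. The summed level of the 8 lymphocyte and myeloid markers was 17487 to 20527 CPM in basal and 17732 to 57050 in flaxseed lanes, with 15217 to 128937 under oil and 18980 to 123640 under SDG, and 0 of the 8 were at 0 in any lane. The 8 did not move as a whole. Mean log2 CPM was higher in oil than in basal lanes for 5 of them: miR-150 (13.33 against 11.45), miR-142-3p (14.26 against 12.02), miR-342-3p (11.27 against 10.14), miR-146a (10.88 against 10.16) and miR-181a (12.02 against 11.90). It was lower in oil for the other 3, miR-155 (9.70 against 9.77), miR-142-5p, from the other arm of the miR-142 hairpin (7.88 against 8.24), and miR-223, a myeloid miRNA (11.46 against 11.89).

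In a bulk gland a different number of cells of a type and a different amount of RNA per cell cannot be told apart. A fit chosen after the data had been seen took the mean log2 CPM of miR-142-3p and miR-150 in each lane as a covariate. In it the miR-92a difference between oil and basal was 0.19 (edgeR adjusted p = 0.879) and that between flaxseed and oil -0.67 (edgeR adjusted p = 0.244). In the same fit oil against basal came to 0.23 for miR-19a, 0.43 for miR-19b, 0.05 for miR-20a+miR-20b, 0.29 for miR-106a+miR-17 and 0.29 for miR-18a, with a median over the 6 of 0.26. SDG against basal came to -0.13 for miR-92a.

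**Figure D4:**
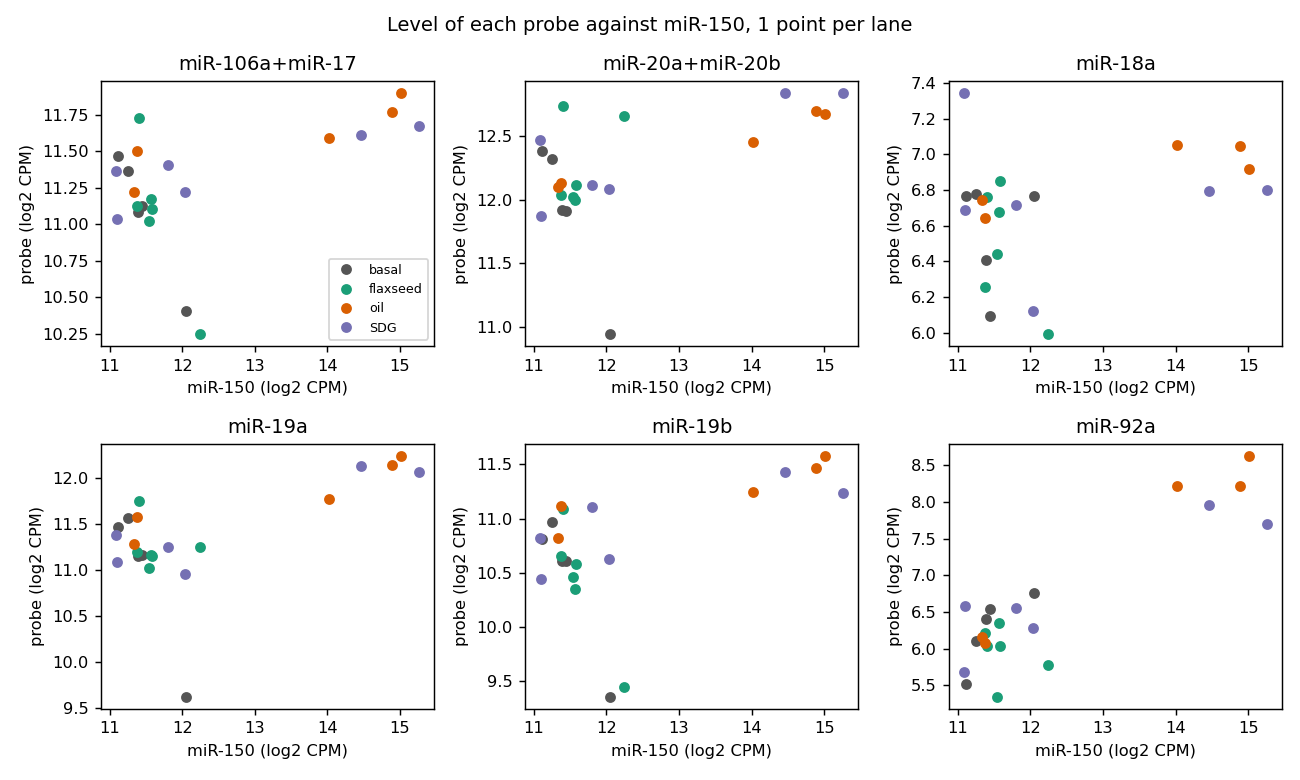
Level of each of the 6 probes (vertical axis, log2 CPM) against that of miR-150 (horizontal axis, log2 CPM), 1 point per lane coloured by diet. For miR-92a, miR-19a and miR-19b the 5 highest lanes, oil 1, 3 and 4 and SDG 1 and 2, are the 5 with miR-150 above 14 log2 CPM.

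The 4 probes above background in all lanes varied together. Across 22 lanes the 6 pairs among them had Pearson r of 0.63 to 0.97 and Spearman rho of 0.73 to 0.93 (permutation test, two-sided, 15 pairs in the family, adjusted p of at most 0.006), and with the diet means removed r was 0.60 to 0.96. The closest pair was miR-19b and miR-106a+miR-17, at r = 0.97 and rho = 0.93 (permutation p = 1e-05, the smallest that these permutations can give), and r was 0.93 without the 2 lanes farthest from the median. Of the pairs that share a seed, miR-19a and miR-19b had r = 0.85 and rho = 0.88 (permutation test), and r was 0.73 without the 2 farthest lanes. For miR-20a+miR-20b and miR-106a+miR-17, r was 0.63 (adjusted permutation p = 0.006), rho 0.76 (adjusted permutation p = 0.0003) and r with the diet means removed 0.60. Without the 2 lanes farthest from the miR-20a+miR-20b median, basal 1 and SDG 2, their r was 0.42 (permutation p = 0.0617). The size of r thus depended on those lanes, and rho was not computed without them. Flaxseed 3, high for miR-20a+miR-20b at 12.66 and low for miR-106a+miR-17 at 10.25, stayed in. Leaving it out lowered the SD of their log2 ratio from 0.362 to 0.165, and r without that lane was not computed. All pairs share the RNA, depth and scaling of a lane.

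miR-18a correlated less with these 4, at r = 0.26 to 0.55 and rho = 0.55 to 0.60, of which 2 of 4 r and 4 of 4 rho passed adjustment in the permutation test. In 10 of the 22 lanes miR-18a was not above background, and the bearing of this on its correlations was not tested. For miR-92a no r with the other 5 probes over all lanes is given, because of the gap of 0.94 between its 5 highest lanes and the other 17. Within the 17 lower lanes, a split made after the data had been seen, r with the other 5 probes ran from -0.63 to -0.14, and 1 of 5 passed, that with miR-20a+miR-20b (adjusted permutation p = 0.0127). In 11 of these 17 lanes miR-92a was not above background.

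Ratios between probes of the same lane need no scaling. miR-19a over miR-19b lay between 1.11 and 1.78 in 21 lanes, a narrow range over lanes whose miR-19a count ran from 118 to 3271, and at 3.50 in flaxseed 3. miR-20a+miR-20b over miR-106a+miR-17 lay between 1.45 and 2.34 in those 21 lanes and at 5.34 in flaxseed 3. That lane was led by miR-720 and had a housekeeping mRNA mean of 134.8 counts against at least 1070 elsewhere. miR-19b over miR-106a+miR-17 ran from 0.483 in basal 1 to 0.876 in SDG 1, without flaxseed 3 standing apart, and oil lanes held 0.758 to 0.810.

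miR-92a over miR-106a+miR-17 ran from 0.0155 to 0.103 over all lanes, wider than any of these ratios. The range was 0.0155 to 0.0788 in basal and 0.0186 to 0.0435 in flaxseed lanes, with 0.0226 to 0.103 under oil and 0.0187 to 0.0787 under SDG. Basal 1, with 16 counts of miR-92a below background, gave the highest basal ratio.

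**Figure D5:**
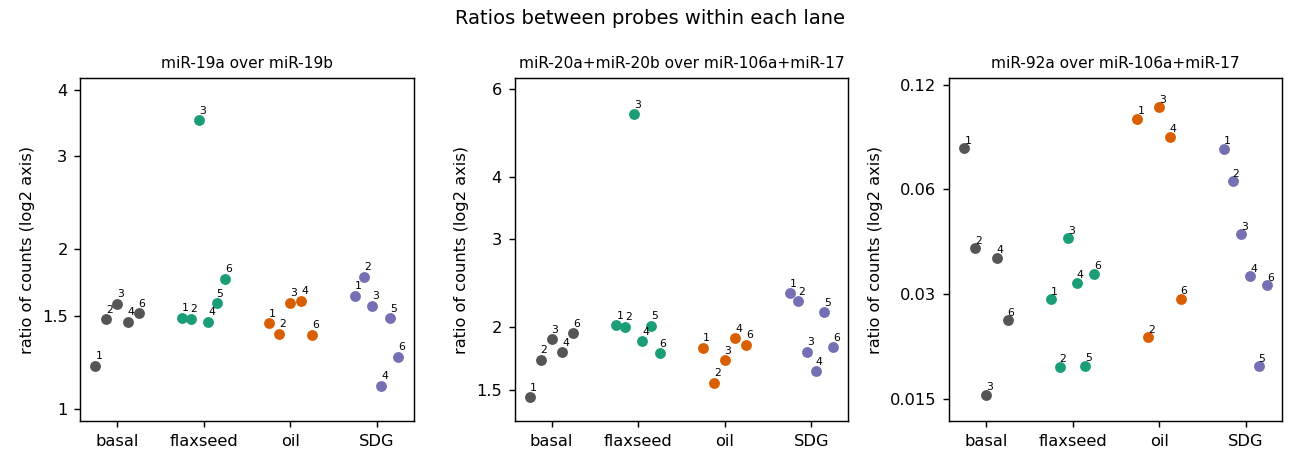
Ratios of counts between probes within each lane (vertical axis, log2 scale) by diet, numbers giving the replicate: miR-19a over miR-19b, miR-20a+miR-20b over miR-106a+miR-17 and miR-92a over miR-106a+miR-17. Flaxseed 3 stands at 3.50 and 5.34 in the first pair of panels, above 1.78 and 2.34 in the other 21 lanes.

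Among the 8 related miRNAs, miR-363 and miR-18b of the X chromosome cluster and miR-92b were above background in 0 of 22 lanes, with counts of at most 29, 17 and 16. The 5 others, miR-106b, miR-93, miR-25, miR-32 and miR-367, were tested, and 5 of 5 lay above 0 in oil against basal and in SDG against basal, with medians of 0.25 and 0.17. miR-106b, which carries the miR-17 seed, went furthest. It is shown with miR-93 and miR-25 of the same Mcm7 cluster, as the nearest relatives by seed.
miR-106b-5p (chr5:138165787-138165807, minus strand): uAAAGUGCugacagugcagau
miR-93-5p (chr5:138165574-138165596, minus strand): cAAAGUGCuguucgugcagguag
miR-25-3p (chr5:138165332-138165353, minus strand): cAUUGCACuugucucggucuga
miR-106b read 9.51, 11.04, 10.89, 10.77 and 11.11 log2 CPM in the basal lanes and 11.36, 11.35, 11.84, 11.77 and 11.13 in the oil lanes. Every oil lane thus lay above every basal lane, as in 1.18% of all probes, and all 6 flaxseed lanes, at 10.59 to 11.05, lay below every oil lane, as in 1.57%. None of the 6 cluster probes separated any pair of diets. The difference was 0.75 ± 0.24 for oil against basal (edgeR adjusted p = 0.201) and -0.66 ± 0.23 for flaxseed against oil (edgeR adjusted p = 0.1).

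miR-93 and miR-25 moved less in oil against basal, at 0.19 ± 0.24 and 0.25 ± 0.34. miR-25, which shares the seed of miR-92a, was higher in flaxseed than in basal lanes by 0.74 ± 0.33 (edgeR adjusted p = 0.554), with flaxseed 3 at 13.65 log2 CPM where the median of that diet was 11.67. The probes outside the cluster most like each member, by Spearman rho over 22 lanes, included miR-106b as the first for miR-19a (0.88), miR-19b (0.87) and miR-106a+miR-17 (0.81). For miR-20a+miR-20b the first was miR-30e (0.78), with miR-25 second (0.75). For miR-92a they were miR-423-3p (0.70), the lymphocyte marker miR-342-3p (0.63) and miR-484 (0.63), and for miR-18a the first was miR-296-5p (0.62). The rho of miR-92a spans the gap between its 5 highest lanes and the other 17. miR-92a was not above background in 11 of the 22 lanes, and miR-18a in 10.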

How the data were processed

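The deposited file of each lane gives raw, unscaled counts, per the labels. A deposited table of log2 values (238 miRNAs, scaling rule not given in the sources used here) served as an alternative. In 16 of 22 columns it matched its own lane best (r 0.990 to 0.998), while all 6 SDG columns matched another SDG lane better. Replicate numbers of SDG may therefore differ between the deposits, which leaves the diets as they are.

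Tested probes lay above background, set from 8 negative controls as mean plus 2 SD, in at least 5 of 22 lanes. edgeR 4.0.16 (R 4.3.3) was fitted to all 22 lanes with TMM scaling on the 254 tested probes and diet as factor, with Benjamini-Hochberg adjustment over them within each comparison. SE was taken as the absolute log2 fold change divided by the root of F. Correlations used 100000 permutations. Scripts were tested on simulated data. All members were named, with 8 relatives fixed by seed or cluster and the 3 most similar probes per member. Members and lists were chosen with earlier results of these data known. Alternatives used DESeq2 1.42.0, limma 3.58.1, other scalings and filters, and leaving out lanes.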

Additional observations from a re-analysis of the deposited data

Results flagged for a closer look

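A lane far from the others of its diet stood out in 7 of the 52 groups of values examined. Chance gives about 1 in 20 for independent groups. These groups share lanes, and the ratios reuse probes whose levels were also examined, so the 7 cannot be set against that rate. In basal 1, miR-19a read 9.63 log2 CPM, where the remaining basal lanes read 11.16 to 11.57, and miR-19b read 9.36, where they read 10.61 to 10.97. The log2 ratio of miR-19a to miR-19b in that lane was 0.27 against 0.55 to 0.66. In flaxseed 3 the same log2 ratio was 1.81 against 0.55 to 0.81 in the other flaxseed lanes. There the log2 ratio of miR-20a+miR-20b to miR-106a+miR-17 was 2.42 against 0.83 to 1.01, and that of miR-25 to miR-106a+miR-17 was 3.40 against 0.17 to 0.67. In flaxseed 5, miR-19a read 11.75 log2 CPM, the remaining flaxseed lanes 11.03 to 11.25. Basal 1 and flaxseed 3 were led by miR-720, and flaxseed 5 was not. SDG 5 was also led by miR-720, and no value of that lane was flagged.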

How the results depend on the processing

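Of 466 fold changes under the alternatives 422 kept direction and side of the threshold, 37 reversed and 7 newly passed it, and with 1 lane left out 373 of 396 kept both. Since 0 members passed in the main fit, any uncalled value of the same sign counts as kept, whatever its size. With the miR-150 covariates miR-92a in oil minus basal counted as kept at 0.19, against 1.54 in the main fit. The number of members called was 0 throughout except for 1, miR-92a, in the settings that follow. For flaxseed against oil these were positive control scaling, the stricter filter, leaving out the lanes led by miR-720, TMM from all probes and DESeq2. For oil against basal it was DESeq2, and for oil against SDG positive control scaling. For any diet it was DESeq2 (8 of 254 probes called) and positive control scaling (6 of 254). Over lanes left out, the number of members called ranged from 0 to 1 for flaxseed against oil (1 without basal 1, flaxseed 6, oil 2 or oil 6).

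Housekeeping scaling moved the median of all probes to 1.39 for flaxseed against basal, 1.15 against oil and 0.92 against SDG, and it reversed miR-18a (0.94), miR-19b (0.71), miR-92a (0.79) and miR-106a+miR-17 (0.90) in flaxseed minus basal. It also reversed miR-18a (0.32), miR-19a (0.53), miR-20a+miR-20b (1.21) and miR-106a+miR-17 (0.21) in flaxseed minus oil, and miR-18a (0.21), miR-19a (0.80), miR-19b (0.074), miR-20a+miR-20b (1.13) and miR-106a+miR-17 (0.33) in flaxseed minus SDG. For oil minus SDG it gave -0.11 for miR-18a and -0.078 for miR-20a+miR-20b. Positive control scaling, with all-probe medians of -0.50 for SDG minus basal and 0.48 for flaxseed minus SDG, gave for the former -0.32 (miR-18a), -0.33 (miR-19a), -0.30 (miR-19b), -0.25 (miR-20a+miR-20b) and -0.37 (miR-106a+miR-17), and for the latter 0.25, 0.31, 0.17, 0.41 and 0.35 in that order, and -0.020 for miR-19a in flaxseed minus basal. Relative to the median of all probes, the median of the 6 kept its sign under both scalings in all comparisons.

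The other reversals were mostly of values near 0. For miR-20a+miR-20b in oil minus SDG they were -0.013 with the stricter filter, -0.037 with background subtracted and -0.10 with the miR-150 covariates, which also gave 0.18 in flaxseed minus oil, 0.080 in flaxseed minus SDG and -0.13 for miR-92a in SDG minus basal. In flaxseed minus basal, leaving out the lanes led by miR-720 gave 0.069 for miR-18a and -0.069 for miR-19a, and the deposited log2 table gave 0.020 for miR-19b and 0.031 for miR-106a+miR-17, with 0.047 for miR-20a+miR-20b in flaxseed minus SDG. Over lanes left out, flaxseed minus basal ranged from -0.16 to 0.028 for miR-18a, -0.069 to 0.27 for miR-19a, -0.25 to 0.075 for miR-19b and -0.16 to 0.11 for miR-106a+miR-17, and oil minus SDG from -0.078 to 0.13 for miR-20a+miR-20b and -0.00054 to 0.25 for miR-18a. The cause of these reversals was not tested.

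Replicate numbers did not pair the lanes: 31 same-numbered pairs had r of -0.62 to 0.53 (median 0.012), and 12 exceeded 0.1. The 150 pairs with different numbers had r of -0.57 to 0.76 (median 0.022), and 60 exceeded 0.1. With the replicate number as a block, 0 members were called in any comparison and miR-92a in flaxseed minus oil was -1.59. Cartridge as a block was not run, since the lane files used here carry no cartridge. The median half-width of a 95% interval over all probes was 0.61 to 0.67, and miR-18a and miR-92a lay near background, which limits what could be detected.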
